A study of Mus musculus with 11 samples.

Results

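The T cell lineage and helper fate factors described here are 9 genes measured in whole mouse lung. They are the genes named Cd3d, Cd3e, Cd3g, Cd4, Cd8a, Gata3, Tbx21, Maf and Bcl6 in the array's own annotation. The rule that picks them uses names and no measured value, but it was written with earlier results of these data known. They make up 9 of 21875 genes tested, and 16 of the 41174 probes on the array that are not controls carry their names. The study hybridised lung RNA of Foxa3 knockout (KO) mice and of littermate control mice, called wild type (WT) here, after challenge with ovalbumin (OVA), the allergen of the mouse asthma model, or with saline. There were 3 KO OVA, 3 WT OVA, 2 KO saline and 3 WT saline lungs, each on its own 1-colour Agilent array of 60-base probes, with 400 ng of RNA labelled per sample. The labels give neither the strain and age of the mice nor the design of the knockout allele or the schedule of challenge. Nothing in them says that the lung samples of a group came from separate mice, so p-values measure only the spread between these samples, which may be technical.

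A T cell recognises antigen through a receptor whose signal is carried by the CD3 chains. CD4 and CD8 are the co-receptors that divide mature T cells into helper and cytotoxic lineages. Helper cells then take different fates under different transcription factors: T-bet (Tbx21) directs the T helper 1 programme and Gata3 the T helper 2 programme of allergic inflammation, c-Maf drives interleukin 4 and interleukin 21, and Bcl6 directs follicular helper cells. None of the fate factors belongs to T cells alone in lung. Gata3 is also made in innate lymphoid, epithelial and endothelial cells, Maf in macrophages, Tbx21 in natural killer cells and Bcl6 in B cells and many others.

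The 3 CD3 genes lie together on mouse chromosome 9 (GRCm38.p6, RefSeq): Cd3g at chr9:44969572-44980431, Cd3d at chr9:44981769-44987052 and Cd3e at chr9:44998735-45009663. Cd3g and Cd3d are read away from each other, with 1337 bases between them, and 11682 bases separate Cd3d from Cd3e. Cd4 lies at chr6:124864693-124888247 and Cd8a at chr6:71373427-71379171. The fate factors lie at chr2:9857078-9887953 (Gata3), chr11:97098007-97115331 (Tbx21), chr8:115703253-115706894 (Maf) and chr16:23965050-23988866 (Bcl6).

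The probes shown next are probes of the receptor and co-receptor genes that read coding sequence. Those of Cd3d, Cd3g and Cd4 give those genes' main values, and that of Cd8a is one of its dimmer probes. Positions are those of the scanner files (mouse build mm7), and each is written 5′ to 3′ along the mRNA. The Cd3d probe, from the plus strand between chr9:44920433-44920664, spans more genome than its own 60 bases and so crosses a splice junction. Its capitals mark 2 runs in 1 open frame that fit the codon pattern of a tyrosine followed, after a pair of other residues, by a leucine, the arrangement of the activation motif (ITAM) through which CD3 chains pass the receptor's signal on.
Cd3d: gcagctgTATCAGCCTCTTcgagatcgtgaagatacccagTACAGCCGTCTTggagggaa
The Cd3g probe (minus strand, chr9:44907978-44908562) crosses a junction too, while the brighter Cd4 probe (minus strand, chr6:124894079-124894138) and the coding probe of Cd8a (plus strand, chr6:71391822-71391881) each map to an unbroken stretch of 60 bases.
Cd3g: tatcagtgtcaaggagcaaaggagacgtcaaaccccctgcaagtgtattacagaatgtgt
Cd4: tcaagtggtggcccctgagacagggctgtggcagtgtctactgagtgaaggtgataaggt
Cd8a: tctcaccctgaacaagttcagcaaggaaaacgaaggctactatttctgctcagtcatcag

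Each value below is the log2 of the array's processed signal minus the log2 of that array's 75th percentile, so 0 is the brightness of a spot at that percentile. Such scaled log2 values can be compared between arrays for 1 probe, but not between probes. Where a gene has several probes, the brightest over the arrays stands for it and the others are given separately. All 16 probes were above background on 11 of 11 arrays. A gene is said to have risen or fallen where the limma test over all 21875 genes gave a Benjamini-Hochberg adjusted p under 0.05. Arrays lay on 3 slides: slides 1 and 2 held 1 array of every group, and slide 3 held all groups but KO saline. Between 71.2% and 78.9% of probes were above background per array, and their number, 2 or 3 per group, limits the precision. Foxa3 itself matched the labels: its probe was not well above background in any KO lung, and was at least 8.55-fold lower in KO than in WT lung after OVA (adjusted p = 0.000364).

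OVA raised 4 of the 9 genes in WT lung and lowered none: Cd3d, Cd3g, Cd8a and Tbx21. Of all genes tested, 10.5% rose in that comparison and 8.48% fell. The OVA and saline arrays did not overlap for 5 of the 9 in WT lung, all higher after OVA, and 21.2% of all genes were likewise higher without overlap. In KO lung none of the 9 passed the limma test, against 6.17% of all genes that rose and 1.93% that fell there. An unadjusted p under 0.05 was found for 3 of the 9 (Cd3d, Cd8a and Tbx21) and for 30.4% of all genes, a similar share. Those 3 also had KO arrays that did not overlap, and 23.4% of all genes were likewise higher there without overlap. The median log2 difference over the 9 genes was 0.26 in KO lung and 0.49 in WT lung, where the medians of all genes were -0.03 and 0.00. Averaged over both genotypes the same 4 genes rose, in a comparison where 17.9% of all genes rose and 18.7% fell. These are whole lungs, so more T cells and more mRNA per T cell cannot be told apart.

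**Figure D1:**
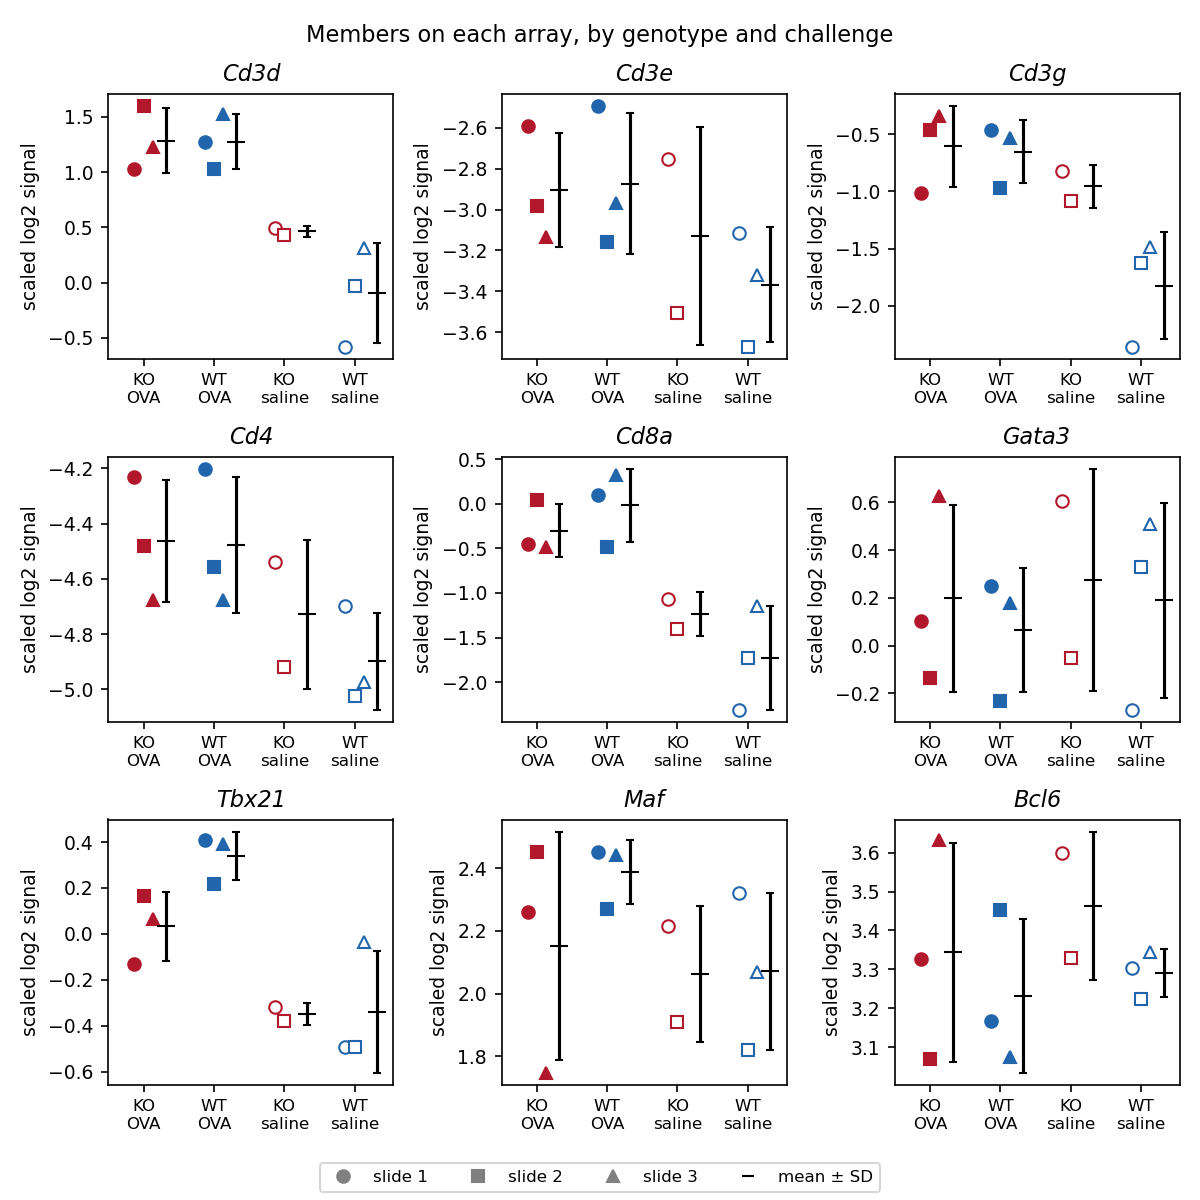
Scaled log2 signal of each gene on every array, by group, with filled points for OVA, open points for saline, red for KO and blue for WT. Marker shapes give the slide, and the black mark and bar beside each group give its mean and SD. Cd3d, Cd8a and Tbx21 lie higher in OVA lungs of both genotypes, while Gata3 and Bcl6 overlap in all groups.

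Cd3d encodes the delta chain of CD3. On slides 1, 2 and 3 its scaled log2 signal was 1.02, 1.60 and 1.23 in KO OVA lungs and 1.27, 1.03 and 1.52 in WT OVA lungs. It was 0.50 and 0.43 on slides 1 and 2 in KO saline lungs, and -0.58, -0.03 and 0.32 in WT saline lungs. Every OVA lung exceeded every saline lung, and the WT saline array of slide 1 was the lowest of all. The gene rose in WT lung by 1.37 ± 0.24 on the log2 scale (SE, n = 3 and 3, limma adjusted p = 0.00914), which is 2.59-fold, and its difference in KO lung was 0.82 ± 0.27 (n = 3 and 2, adjusted p = 0.085). Within slides the WT difference was 1.85, 1.06 and 1.21, and the KO difference 0.53 and 1.17.

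Cd3g encodes the gamma chain, and of the 9 genes it had the largest log2 difference between KO and WT saline lungs. Its signal was -1.01, -0.47 and -0.34 on slides 1 to 3 in KO OVA lungs and -0.46, -0.97 and -0.53 in WT OVA lungs, against -0.83 and -1.09 in KO saline lungs and -2.36, -1.63 and -1.48 in WT saline lungs. The 3 WT saline lungs lay below all other lungs, while KO OVA and KO saline lungs overlapped. Cd3g rose 2.25-fold in WT lung, by 1.17 ± 0.27 on the log2 scale (adjusted p = 0.022), with 1.90, 0.66 and 0.95 within slides. In KO lung the difference was 0.35 ± 0.30 (adjusted p = 0.467), with -0.19 and 0.62 within slides.

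Cd3e, the epsilon chain, was read by a pair of probes that gave different answers. The brighter one gave -2.59, -2.98 and -3.13 on slides 1 to 3 in KO OVA lungs and -2.49, -3.16 and -2.97 in WT OVA lungs, against -2.75 and -3.51 in KO saline and -3.11, -3.67 and -3.32 in WT saline lungs. Its groups overlapped, and within every group the slide 1 array was the highest. The log2 difference was 0.23 ± 0.29 in KO lung (adjusted p = 0.648) and 0.49 ± 0.26 in WT lung (adjusted p = 0.203). The dimmer probe, with 1.30 ± 0.30 in WT lung, passed the limma test adjusted over all probes (adjusted p = 0.0234) and did not in KO lung at 0.61 ± 0.33 (adjusted p = 0.248). Its OVA and saline arrays did not overlap in either genotype.

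Cd3d and Cd3g face away from each other across the gap of 1337 bases, and their upstream sequences are printed here because both rose with OVA in WT lung. Each window is the 250 bases before the start in RefSeq's promoter table (GRCm38.p6), 5′ to 3′ on the gene's own strand, at chr9:44980432-44980681 on the minus strand for Cd3g and chr9:44981536-44981785 on the plus strand for Cd3d. The end of the Cd3d window lies inside the gene as placed above, which begins at 44981769. Capitals mark matches, on either strand, to short motifs of the fate factors: GATAA for GATA factors, TCACACC for T-box factors, TTCCTNGAA for BCL6 and TGCTGAC for MAF factors.
Cd3g: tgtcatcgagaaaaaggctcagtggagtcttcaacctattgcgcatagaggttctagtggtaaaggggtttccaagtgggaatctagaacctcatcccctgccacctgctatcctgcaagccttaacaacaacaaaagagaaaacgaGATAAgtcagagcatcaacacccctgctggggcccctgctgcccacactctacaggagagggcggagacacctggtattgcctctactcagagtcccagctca
Cd3d: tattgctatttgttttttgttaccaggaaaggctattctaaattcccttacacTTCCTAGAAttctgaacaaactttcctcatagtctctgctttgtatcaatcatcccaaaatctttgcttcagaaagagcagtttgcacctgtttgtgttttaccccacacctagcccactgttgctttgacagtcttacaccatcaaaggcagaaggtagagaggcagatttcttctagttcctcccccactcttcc
The capitals are GATAA in the Cd3g window and TTCCTAGAA in the Cd3d window. Windows were at hand for 7 of the 9 genes, 8 in all because Bcl6 has a pair of starts. GATAA occurred in 2 of the 8 (Cd3g and Cd8a) and in 22.6% of all 32851 promoter windows, and the BCL6 motif in 2 (Cd3d and 1 start of Bcl6) and in 1.31% of all windows. The T-box and MAF motifs occurred in 0 of the 8, and in 3.33% and 3.81% of all windows. A match describes the letters and is no measured binding site.

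Cd8a, the co-receptor chain of cytotoxic T cells, had the largest OVA difference of the 9 genes in both genotypes. Its signal was -0.46, 0.04 and -0.49 on slides 1 to 3 in KO OVA lungs and 0.10, -0.48 and 0.32 in WT OVA lungs. It was -1.07 and -1.41 in KO saline lungs and -2.31, -1.73 and -1.15 in WT saline lungs. No OVA lung overlapped with a saline lung. In WT lung the gene rose 3.27-fold, by 1.71 ± 0.31 on the log2 scale (adjusted p = 0.0109), and by 2.41, 1.25 and 1.47 within slides. The KO difference was 0.94 ± 0.35 (adjusted p = 0.115), or 0.61 and 1.45 within slides. The other 2 probes of Cd8a, the coding probe printed above included, passed in WT lung as well, at 1.49 ± 0.28 and 1.38 ± 0.31. In KO lung they stood at 0.56 and 0.53 (adjusted p = 0.257 and 0.335), and the KO groups overlapped at the last one, which gave -0.06 on slide 1 and 1.08 on slide 2.

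Cd4, the helper co-receptor, changed less at its brighter probe. That probe gave -4.23, -4.48 and -4.68 on slides 1 to 3 in KO OVA lungs and -4.20, -4.56 and -4.68 in WT OVA lungs, against -4.54 and -4.92 in KO saline lungs and -4.70, -5.02 and -4.97 in WT saline lungs. OVA and saline arrays just failed to overlap in WT lung and overlapped in KO lung, with slide 1 highest in every group. The log2 differences were 0.27 ± 0.20 in KO lung (adjusted p = 0.404) and 0.42 ± 0.18 in WT lung (adjusted p = 0.123). The dimmer Cd4 probe was the only one of the 16 to pass in both genotypes: it rose by 0.90 ± 0.21 in KO lung (limma p adjusted over all probes = 0.0392) and by 0.67 ± 0.19 in WT lung (adjusted p = 0.0429). That probe was faint in saline lungs, at -6.42 and -6.295 on slides 1 and 2 in KO and -6.50, -6.74 and -6.12 in WT. The lowest signal well above background on those arrays was -6.86 and -6.59 in KO and -7.44, -7.25 and -7.04 in WT. The size of its rise is therefore uncertain. The brighter probe is printed at 10 spots per array, whose log2 values had a median SD of 0.27, against 0.09 for the Cd8a probe that is also printed at 10 spots. Within arrays, the WT difference of Cd8a exceeded that of Cd4's brighter probe by 1.29, and on each of the 3 slides by 1.92, 0.78 and 1.18. In KO lung it did so by 0.67, or 0.30 and 1.01 on the slides that held both KO groups. The KO excess depended on the probes. The dimmer Cd4 probe's 0.90 was close to the 0.94 of Cd8a's brightest probe and above the 0.56 and 0.53 of its others. In WT lung all Cd8a probes, at 1.71, 1.49 and 1.38, exceeded the dimmer Cd4 probe at 0.67. These are given as descriptions without a test.

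**Figure D2:**
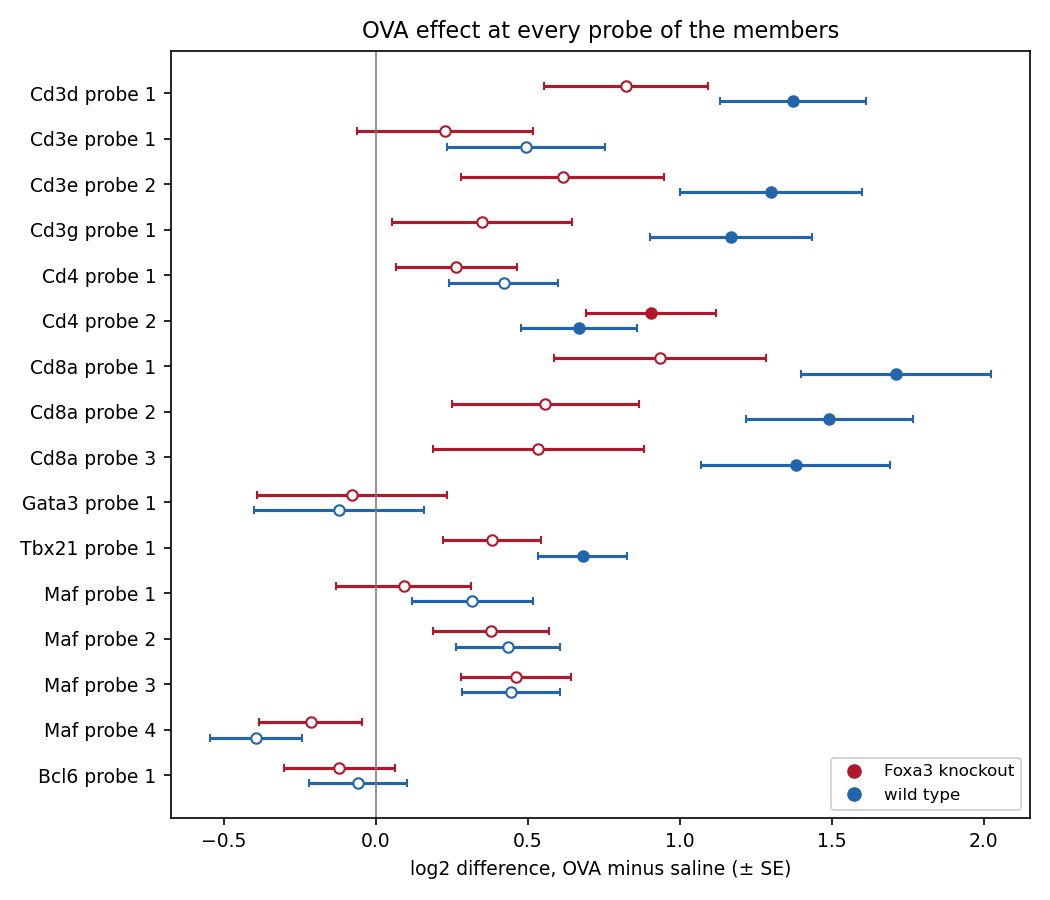
Log2 difference, OVA minus saline, with its SE at each of the 16 probes, red for KO and blue for WT. Filled points passed the test adjusted over all probes, and probe 1 of a gene is its brightest. Cd3d, Cd3g, all 3 Cd8a probes, Tbx21 and the dimmer probes of Cd3e and Cd4 are filled in WT, and the dimmer Cd4 probe alone is filled in KO.

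Over all 16 probes, 1 rose in KO lung and 8 in WT lung, where 5.38% and 9.5% of all probes did. Averaged over genotypes 10 of the 16 rose, against 16.9% of all probes.

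Tbx21 encodes T-bet. Its signal was -0.13, 0.16 and 0.07 on slides 1 to 3 in KO OVA lungs and 0.41, 0.22 and 0.39 in WT OVA lungs, against -0.32 and -0.38 in KO saline lungs and -0.49, -0.49 and -0.04 in WT saline lungs. OVA and saline lungs did not overlap within either genotype, and the 3 WT OVA lungs lay above all others. The WT rise was 1.60-fold, or 0.68 ± 0.14 on the log2 scale (adjusted p = 0.0176), with 0.90, 0.71 and 0.43 within slides. The KO difference was 0.38 ± 0.16 (adjusted p = 0.149), with 0.19 and 0.54 within slides.

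Gata3, the T helper 2 factor, showed no difference that passed the test. Its signal was 0.10, -0.14 and 0.63 on slides 1 to 3 in KO OVA lungs and 0.25, -0.23 and 0.18 in WT OVA lungs, against 0.61 and -0.05 in KO saline lungs and -0.27, 0.33 and 0.51 in WT saline lungs. All groups overlapped. The log2 difference was -0.08 in KO lung (95% interval -0.79 to 0.63, adjusted p = 0.90) and -0.12 in WT lung (-0.76 to 0.51, adjusted p = 0.793), so a change of more than 1 log2 unit lies outside both intervals. The slides disagreed in sign in WT lung, at 0.52, -0.56 and -0.33, while KO lung gave -0.50 and -0.09. Within arrays, Tbx21's difference exceeded that of Gata3 by 0.46 in KO lung (0.69 and 0.63 by slide) and by 0.80 in WT lung (0.38, 1.27 and 0.76 by slide), again as a description.

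Maf was read by 4 probes, 3 of which had higher means after OVA and 1 a lower mean. The brightest gave 2.26, 2.45 and 1.75 on slides 1 to 3 in KO OVA lungs and 2.45, 2.27 and 2.44 in WT OVA lungs, against 2.22 and 1.91 in KO saline and 2.32, 1.82 and 2.07 in WT saline lungs, and its groups overlapped. Its log2 difference was 0.09 ± 0.22 in KO lung and 0.32 ± 0.20 in WT lung (adjusted p = 0.827 and 0.282). A second pair of probes gave 0.46 and 0.38 in KO lung and 0.45 and 0.43 in WT lung, with adjusted p between 0.0827 and 0.216, and passed averaged over genotypes, at 0.45 and 0.41 (adjusted p = 0.0189 and 0.0352). The probe with the opposite sign, at -0.21 ± 0.17 in KO lung (adjusted p = 0.431) and -0.39 ± 0.15 in WT lung (adjusted p = 0.0985), lies 20509 bases (mm7) from the nearest other Maf probe, farther than the 3642 bases RefSeq gives the gene, and it is named Maf in the array's annotation.

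Bcl6, the follicular helper factor, was 3.33, 3.07 and 3.63 on slides 1 to 3 in KO OVA lungs and 3.17, 3.45 and 3.07 in WT OVA lungs. It was 3.60 and 3.33 in KO saline lungs and 3.30, 3.22 and 3.34 in WT saline lungs, so all groups overlapped. The log2 difference was -0.12 in KO lung (95% interval -0.529 to 0.289) and -0.06 in WT lung (-0.425 to 0.307), with adjusted p of 0.706 and 0.83.

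**Figure D3:**
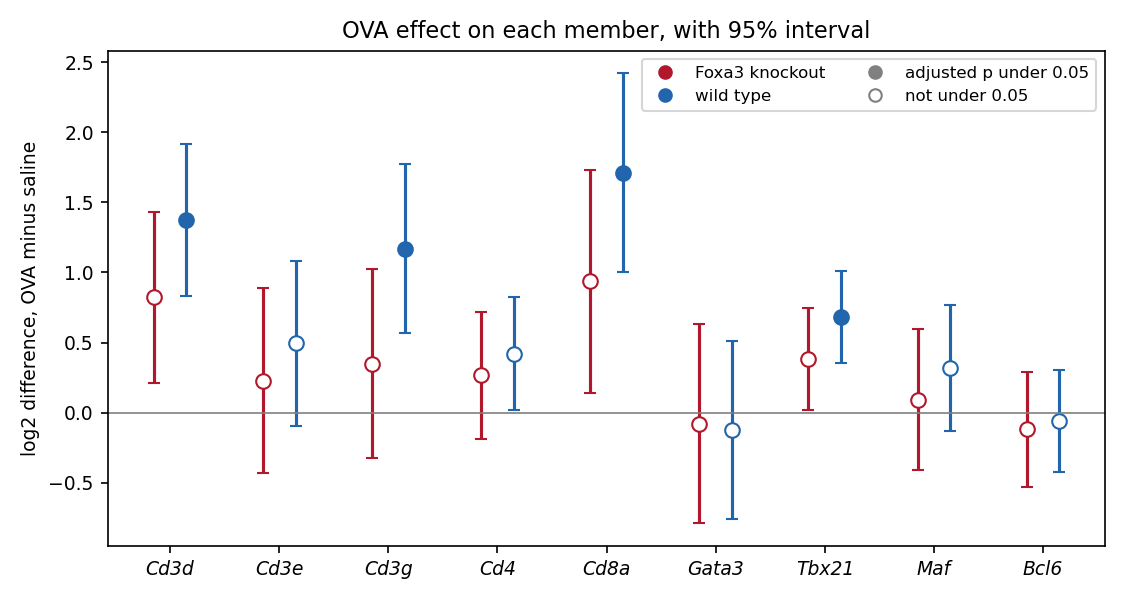
Log2 difference, OVA minus saline, of each gene's brightest probe with its 95% interval from the limma fit, red for KO and blue for WT. Filled points passed an adjusted p of 0.05. The 4 filled points are Cd3d, Cd3g, Cd8a and Tbx21 in WT, and all KO points are open.

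Slide by slide, and at each gene's brightest probe, Cd3d, Cd3e, Cd4, Cd8a, Tbx21 and Maf were higher in OVA than in saline lung in each of the 5 within-slide comparisons, 2 in KO and 3 in WT. Cd3g was higher in 4 of them. The WT differences of Cd3d, Cd3g and Cd8a were largest on slide 1, whose WT saline array was the lowest for those 3 genes. With slide as a block, 6 genes rose in WT lung, Cd3e (adjusted p = 0.047) and Cd4 (adjusted p = 0.0365) being added, and 0 in KO lung. Of all genes, 12.4% passed either way in WT lung and 3.78% in KO lung in that fit. Leaving out any 1 slide left 0 of the 9 passing in WT lung, where Cd8a was at 1.36, 1.94 and 1.83 without slides 1, 2 and 3, and the share of all genes passing either way was 0.123%, 8.58% and 2.33%, against 19% on all arrays. Leaving out WT OVA replicate 2 or 3, or WT saline replicate 1 or 2, left Cd3d and Cd8a passing and Cd3g and Tbx21 not. In those fits 4.88%, 4.58%, 6.97% and 5.04% of all genes passed either way, against 19% on all arrays. Without WT saline replicate 3 that share was 8.87%, and all 4 genes still passed. The cause of the lost calls was not tested.

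**Figure D4:**
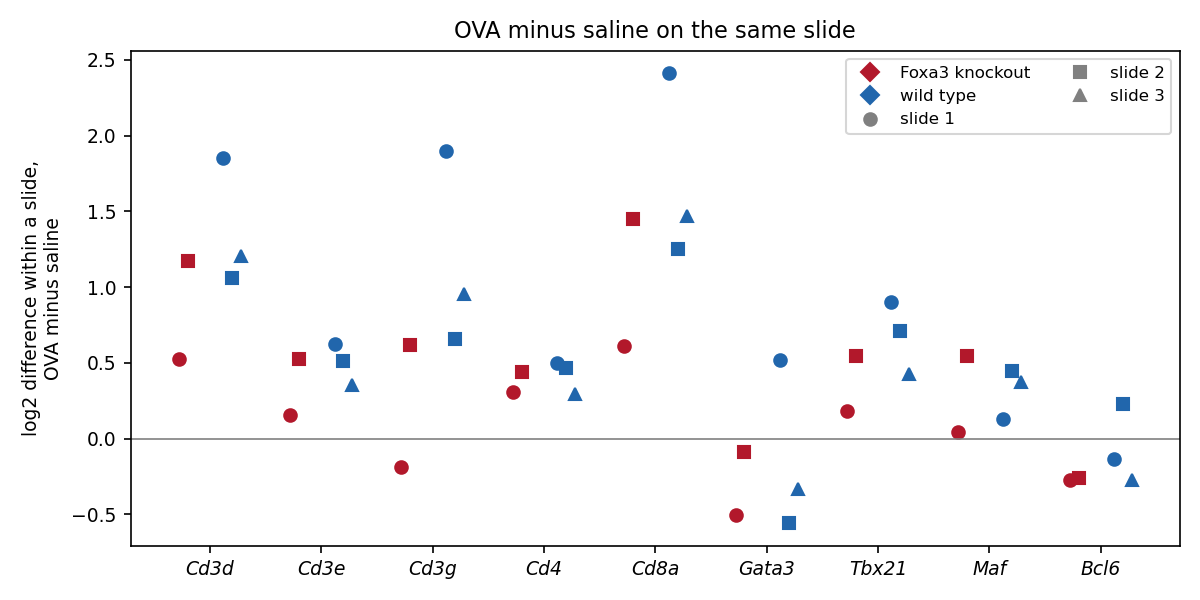
Log2 difference between the OVA and the saline array of the same slide, for each gene, with red for KO (slides 1 and 2), blue for WT (slides 1 to 3) and marker shapes for slides. Cd3d, Cd3e, Cd4, Cd8a, Tbx21 and Maf lie above 0 on every slide, and Gata3 and Bcl6 lie on both sides of it in WT.

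Between genotypes, none of the 9 passed the limma test after saline or after OVA, where 0.096% and 0.215% of all genes did, and 1 and 0 of the 9 had an unadjusted p under 0.05, against 3.27% and 4.96% of all genes. After saline, Cd3g was 0.87 ± 0.30 higher in KO than in WT lung on the log2 scale (adjusted p = 1.0, unadjusted p = 0.0173), Cd3d 0.56 ± 0.27 and Cd8a 0.49 ± 0.35. KO saline and WT saline lungs did not overlap for Cd3d and Cd3g, and 11.6% of all genes were likewise higher in KO without overlap. After OVA the 9 differences lay between -0.31 and 0.13, with Tbx21 lowest at -0.31 ± 0.14 (unadjusted p = 0.0628) and lower in KO on each of the 3 slides, at -0.54, -0.05 and -0.33. Its KO OVA and WT OVA lungs did not overlap, and 4.4% of all genes were likewise lower in KO without overlap.

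The OVA effect in KO lung minus that in WT lung was -0.82 ± 0.40 for Cd3g, -0.78 ± 0.47 for Cd8a and -0.55 ± 0.36 for Cd3d on the log2 scale. Their 95% intervals were -1.72 to 0.08, -1.84 to 0.29 and -1.37 to 0.27, each holding 0. No member passed the test of this difference and none had an unadjusted p under 0.05, in a comparison where 0.00457% of all genes passed and 2.58% had such an unadjusted p. A call in WT and none in KO is therefore no measured difference between the genotypes. The KO saline group holds 2 lungs.

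Averaged over both genotypes, Cd3d was 2.14-fold higher after OVA (adjusted p = 0.00298), and the log2 OVA difference was 1.32 ± 0.24 for Cd8a (adjusted p = 0.00404), 0.53 ± 0.11 for Tbx21 (adjusted p = 0.00692) and 0.76 ± 0.20 for Cd3g (adjusted p = 0.0178). Cd4's brighter probe stood at 0.34 ± 0.13 (adjusted p = 0.0735) and that of Cd3e at 0.36 ± 0.20 (adjusted p = 0.18). With slide as a block both passed, Cd4 at 0.38 (adjusted p = 0.0116) and Cd3e at 0.38 (adjusted p = 0.0237), so that 6 of the 9 rose. In that fit 33.9% of all genes passed either way, against 36.6% without the block.

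The genes whose centred values came nearest over the 11 arrays, among 16702 genes with a usable symbol, were T cell genes for some of the 9 and not for others. Nearness is the root mean square difference in log2 units after centring each gene. Nearest to Cd3d were Lck, the kinase that starts receptor signalling, at 0.12, and the receptor-associated glycoproteins Cd5 and Cd6 at 0.13 and 0.14, against Cd3d's own variation of 0.66 about its mean. Nearest to Cd3g were Trbv14, a T cell receptor beta variable segment, the co-stimulatory receptor Cd28 and Ms4a4b, at 0.13, 0.15 and 0.18. Nearest to Cd8a were Crtam, Slamf6 and the interleukin receptor chain Il2rb, at 0.12 to 0.14. Cd3e's brighter probe was nearest to Inava, En2 and AA792892 and Cd4's to Mt3, Gabbr2 and 1600029O15Rik, none of which rose in either genotype. Gata3 was nearest to Mylip, Meox2 and St8sia4, Tbx21 to Septin6, Tmem229b and Plcg2, Maf to Rdh12, Cyth4 and Tfam, and Bcl6 to Chmp5, Slc39a4 and Wdr78, at 0.08 to 0.16. Own variation was 0.31 for Gata3, 0.32 for Tbx21, 0.24 for Maf and 0.18 for Bcl6, against 0.58 for Cd3g and 0.79 for Cd8a. A like distance is thus a poorer match for a gene that varies less.

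The rest of the receptor machinery was described with a list of 25 genes of T cell receptor signalling, 24 of them measured. In KO lung 7 rose and 0 fell, and in WT lung 15 rose and 1 fell, with median log2 differences of 0.55 in KO and 0.91 in WT lung. Of all genes, 6.17% rose and 1.93% fell in KO lung, and 10.5% rose and 8.48% fell in WT lung. The counts of every list below are to be set beside these shares. The largest WT changes were in the inhibitory receptor Ctla4, the co-stimulatory receptor Icos, Cd6 and the adaptor Sh2d1a. Ctla4 was not well above background in any saline lung and was at least 3.33-fold higher with OVA in KO lung (adjusted p = 0.0112) and at least 3.93-fold higher in WT lung (adjusted p = 0.00326). Icos rose by 1.48 in KO lung (adjusted p = 0.00986) and 1.52 in WT lung (adjusted p = 0.00424). Cd6 and Sh2d1a rose by 1.47 and 1.46 in WT lung (adjusted p = 0.0133 and 0.0168) and stood at 0.96 and 0.75 in KO lung (adjusted p = 0.0878 and 0.176).

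Of 10 CD8 and cytotoxic genes, 1 rose in KO lung and 7 in WT lung, with medians of 0.26 and 0.96. The granzyme gene Gzmk was well above background in no KO saline lung and in 1 of 3 WT saline lungs. It was at least 3.48-fold higher with OVA in KO lung without passing the test (adjusted p = 0.0508), and it passed in WT lung (adjusted p = 0.0238), where its size is uncertain because most saline lungs were at background, fitted without the WT OVA array of slide 2, where its spot was an outlier. Crtam rose by 1.64 in WT lung (adjusted p = 0.008) and stood at 1.08 in KO lung (adjusted p = 0.0637). Eomes, a T-box factor of cytotoxic cells, rose by 1.51 in WT lung (adjusted p = 0.0326) and stood at 0.86 in KO lung (adjusted p = 0.225). Runx3, a factor of the CD8 lineage, rose in both, by 0.99 in KO lung (adjusted p = 0.0468) and 1.45 in WT lung (adjusted p = 0.00583).

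Among 26 further T lineage and helper fate transcription factors, 6 rose and 1 fell in KO lung, and 9 rose and 1 fell in WT lung, with medians of 0.25 and 0.40. Foxp3, which defines regulatory T cells, was at least 3.04-fold higher with OVA in KO lung, where no saline lung was well above background (adjusted p = 0.0274). It rose by 1.86 in WT lung (adjusted p = 0.0282), a size that is uncertain because only 2 of 3 saline lungs were well above background. Irf4, a factor of activated lymphocytes, rose by 1.70 in KO lung (adjusted p = 0.0398) and 1.50 in WT lung (adjusted p = 0.0267). Eomes and Runx3, given above, complete the 4 with the largest WT changes.

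Of 22 measured helper cytokine and receptor genes, 9 rose in KO lung and 13 in WT lung, none fell in either, and the medians were 1.14 and 1.56. Pdcd1, the checkpoint receptor of activated T cells, rose by 3.73 in KO lung (adjusted p = 0.000869) and 3.71 in WT lung (adjusted p = 0.000424). The interleukin 12 receptor chain Il12rb1 rose by 1.72 in KO lung (adjusted p = 0.0101) and 2.11 in WT lung (adjusted p = 0.00252). Il5, the T helper 2 cytokine that supports eosinophils, was at least 2.42-fold higher in KO lung (adjusted p = 0.0254) and passed in WT lung (adjusted p = 0.0301), where 2 of 3 OVA lungs and 1 of 3 saline lungs were well above background, so that no size is given. Il21, a cytokine of follicular helper cells, was at least 1.79-fold higher in WT lung (adjusted p = 0.00534), where 2 of 3 OVA lungs and no saline lung were well above background, and in KO lung it was so in 1 OVA lung. Of 8 naive and homing genes, 2 rose in KO lung and 4 in WT lung. Cd69 rose by 1.21, Cxcr6 by 1.01, Ccr7 by 0.91 and Cd44 by 0.74 in WT lung, and Cxcr6 and Cd44 rose in KO lung too, by 0.67 and 0.72, while Cd69 and Ccr7 stood at 0.19 and 0.04 there.

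**Figure D5:**
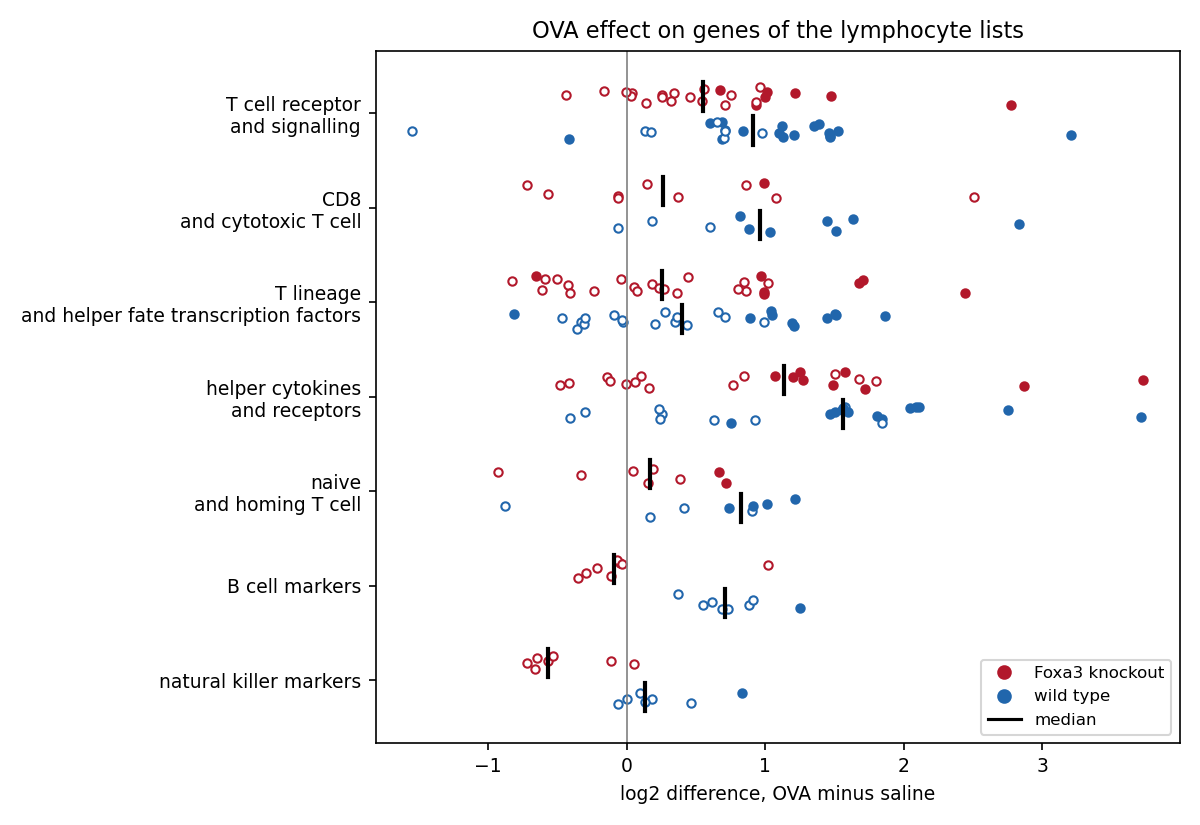
Log2 difference, OVA minus saline, of each gene in 5 T cell lists and the B cell and natural killer lists, red for KO and blue for WT. Filled points passed an adjusted p of 0.05 and black bars are list medians. The WT medians are the higher ones in all 7 lists, a difference that was not tested, and those of the B cell and natural killer lists are below 0 in KO.

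Markers of other lymphocytes were read on the same arrays. Gzma and Prf1 of the natural killer list were also counted in the CD8 and cytotoxic list. B cell genes rose in 0 of 8 cases in KO lung and 1 of 8 in WT lung, with medians of -0.09 and 0.71, and natural killer genes in 0 of 7 and 1 of 7, with medians of -0.57 and 0.13. These counts are near the 6.17% and 10.5% of all genes that rose. The summed linear signal of the 8 B cell genes, relative to each array's 75th percentile, ranged over 21.2 to 28.1 in KO OVA, 28.5 to 40.2 in WT OVA, 14.3 to 24.7 in KO saline and 10.3 to 25.3 in WT saline lungs. That of the 24 T cell receptor genes ranged over 25.9 to 33.1 in KO OVA, 17.5 to 31.7 in WT OVA, 17.1 to 19.3 in KO saline and 11.7 to 17.8 in WT saline lungs. Natural killer sums were 3.02 to 4.28 in KO OVA, 5.03 to 5.89 in WT OVA, 4.53 to 5.21 in KO saline and 3.81 to 5.89 in WT saline lungs, and Tbx21 is expressed by those cells as well.

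Of the cells that carry Maf, Gata3 or Cd4 besides T cells, macrophage markers rose in 5 of 8 cases in KO lung and 7 of 8 in WT lung. Of all genes, 6.17% rose and 1.93% fell in KO lung, and 10.5% rose and 8.48% fell in WT lung. The macrophage sums were 38.3 to 69.0 in KO OVA, 38.7 to 77.8 in WT OVA, 16.1 to 17.5 in KO saline and 16.8 to 19.1 in WT saline lungs. Dendritic cell markers rose in 3 of 8 cases in each genotype, with median log2 differences of 0.09 in KO and 0.08 in WT lung. The dendritic sums were 11.3 to 21.5 in KO OVA, 9.95 to 21.2 in WT OVA, 4.377 to 4.975 in KO saline and 4.90 to 5.83 in WT saline lungs. Group 2 innate lymphoid markers, which share Gata3 with helper cells, rose in 3 of 7 cases in KO lung and 4 of 7 in WT lung, and 1 of the 7 fell in WT lung. Their sums were 2.97 to 3.10 in KO OVA, 2.65 to 2.94 in WT OVA, 2.77 to 2.98 in KO saline and 2.73 to 3.00 in WT saline lungs. Il1rl1, Il2ra and Rora of that list were also counted in the T cell lists. Endothelial markers fell in 1 of 6 cases in KO lung and 4 of 6 in WT lung, eosinophil markers rose in 2 and fell in 1 of 5 in each genotype, and 10 of 10 cell cycle genes rose in each. Of 7 thymus markers, 4 were measured and none rose or fell, Tcf7 being shared with the T lineage factors. The part of these cells in the differences of the 9 genes was not tested.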

How the data were processed

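Per the file headers, Agilent Feature Extraction 9.5.1.1 (9.1 in the submitters' processing notes) made the deposited scanner files, whose processed signal is a background-subtracted, detrended intensity for 1 colour. The authors' deposited value table gives log2 values whose columns share a median of 7.67, with their scaling and centring not stated, and served as an alternative. Spots flagged as outliers were dropped, log2 intensity minus the array's 75th percentile was averaged per probe, and probes above background on at least 2 arrays were kept (32946 probes, 21875 genes, brightest probe per gene). Groups were fitted on all 11 arrays with limma 3.58.1 (lmFit, eBayes) in R 4.3.3, and p-values were Benjamini-Hochberg adjusted over all genes, or over all kept probes where probes are compared.

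The 9 genes and all lists were chosen with earlier results of these data known. Named genes were the 9, the 3 nearest to each over the arrays, up to 4 called in WT with the largest change per T cell list, and Foxa3. A fold written as "at least" sets the brighter group against, per array, the higher of the dim probe's signal and the lowest signal well above background. Alternatives covered background correction, scaling, filters, probe choice, blocks and arrays left out.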

Additional observations from a re-analysis of the deposited data

How the results depend on the processing

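With 1 value per gene, no member passed in KO lung, in either genotype comparison or in the difference of OVA effects under any alternative run, while the dimmer Cd4 probe tested on its own passed in KO lung (0.90, adjusted p = 0.0392). In saline lungs that probe lay close to the lowest signal well above background. In WT lung, where 4 passed, 0 passed with normexp background correction (offset 50), which also left 0 genes of all, and 4 did once spots with far brighter local background were left out. The count was 2 in a fit of only the 2 groups compared (9.19% of all genes passing), 5 with quantile normalization (20.3%) and 6 with the mean over a gene's probes (16.8%) or with slide as a block (12.4%). It was 0 without slide 1, 0 without slide 2 and 0 without slide 3, the last pair chosen after seeing the data, and 2 to 4 without single arrays. Averaged over genotypes, where 4 passed, the count was 1 with normexp, 5 with quantile normalization, 6 with the mean over probes or with slide as a block, 0 without slide 1, 0 without slide 2, 3 without slide 3, and 3 to 4 without single arrays. Of all genes, 4.74% passed on that average with normexp, 37.1% with quantile normalization, and 33.9% with the mean over probes and with slide as a block. With the replicate block 4 passed in WT lung and 4 on average, so it changed no call. The numbers did not pair the samples, since deviations of 15 same-numbered pairs correlated at -0.405 to 0.341, with 4 of them over 0.1. Slides did: 15 same-slide pairs had a median correlation of 0.266, with 12 over 0.1, against a median of -0.158 for 30 pairs on different slides. The main fit holds no slide term. The directions of the called members held in all of these. Over the 9 genes, all comparisons and all alternatives, 88 of 1386 values turned sign, all for differences not called on all arrays. Among these, Gata3 stood at 0.094 in WT lung without slide 2 and at 0.30 in KO lung without slide 1. Bcl6 stood at 0.0462 in WT lung without slide 3 and at 0.0228 in KO lung without slide 1. In KO lung without slide 2, Cd3e stood at -0.11 and Maf at -0.21. Not all were near 0 at first: Cd8a between genotypes after saline was 0.49 on all arrays and -0.0256 with normexp. Without single arrays, Gata3 ranged over -0.41 to 0.25 in KO and -0.352 to 0.0365 in WT lung, Bcl6 over -0.265 to 0.0164 in KO and -0.17 to 0.0192 in WT lung, Cd3e over -0.15 to 0.61 and Maf over -0.063 to 0.293 in KO lung. The cause of these moves was not tested, beyond the fewer arrays in some.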
